A study of Mus musculus with 39 samples.

Results

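Blood vessel genes were followed in bulk RNA of the hippocampus and the basolateral amygdala (BLA), a nucleus of emotional memory, in mice with amyloid precursor protein (APP) and tau transgenes and in their Controls. The set holds 34 genes, 24 of endothelial cells and 10 of mural cells (pericytes and smooth muscle cells of the vessel wall), found by symbol among the 50559 genes counted. All 34 were present in both tissues, and all 34 passed the filter on low counts in each. The APP/Tau mice carry the APPSw,Ind transgene (line J9) and the Tau P301S transgene (line PS19), and the Control mice carry neither. All mice, Controls included, also carry CaMKIIα-Cre, active in glutamatergic forebrain neurons, and 1 RiboTag allele, which tags ribosomes in the cells that express Cre. The libraries came from the cleared tissue lysate, taken ahead of the ribosome pulldown, and so hold RNA of vessel cells as well as neurons. All mice were females aged 9 months, hippocampi were cut out by scalpel and the BLA was taken with a micropunch. Trained mice were killed 1 h after the foot shock of a cued fear conditioning session, and naive mice had no conditioning. The hippocampal groups held 4 trained and 5 naive APP/Tau mice and 6 trained and 5 naive Controls. The BLA groups held 4 trained and 5 naive APP/Tau mice and 5 trained and 5 naive Controls.

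Endothelial cells line the vessel and, in the brain, form the blood-brain barrier: they seal their contacts with tight junctions, import glucose through a dedicated carrier and pump foreign compounds back to the blood. Pericytes wrap capillaries and depend on PDGF signalling from the endothelium, while smooth muscle cells ring arterioles and set their width through an actomyosin machine. In whole-tissue RNA, fewer cells of a type and less RNA per cell cannot be told apart.

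Libraries held between 92.1 M and 128 M counts in the hippocampus and between 50.3 M and 74.3 M in the BLA, where M stands for 1e6. Levels are given as CPM, counts divided by the library's total in M after TMM scaling within the tissue, and changes as the log2 fold change of APP/Tau over Control with its standard error. A gene was called when its Benjamini-Hochberg adjusted p, over all genes tested in edgeR's quasi-likelihood F test, was under 0.05. A pair of hippocampal Control libraries (naive replicate 1 and trained replicate 1) held over 10000 CPM of the 18S rRNA gene Rn18s-rs5. In the BLA, 3 libraries (APP/Tau trained replicate 4, APP/Tau naive replicate 2 and Control trained replicate 2) held over 1000 CPM of summed striatal and central amygdala markers. No marker of hippocampal or basolateral neurons was at 0 in any library. Hippocampal markers summed to 387 to 756 CPM in APP/Tau and 679 to 848 CPM in Control hippocampi, and basolateral markers to 359 to 808 CPM in APP/Tau and 428 to 1060 CPM in Control BLA.

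Per kilobase of exon, the 24 endothelial genes spanned a wide range of levels. In Control hippocampus the tight junction protein Cldn5 (claudin-5) led at 22.8 CPM per kb. Pltp, which transfers phospholipids between lipoproteins, followed at 22.1, then the membrane protein Itm2a at 20.1 and Slc2a1, the glucose carrier GLUT1, at 18.8 CPM per kb. The sialomucin Emcn stood lowest at 0.806 CPM per kb. Among the mural genes Vtn, the matrix protein vitronectin, led at 29.1 CPM per kb, ahead of Rgs5, a regulator of G protein signalling, at 20.1 CPM per kb. The aminopeptidase Anpep (CD13) was the lowest mural gene at 0.661 CPM per kb.

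The stretch upstream of the transcription start is shown for the 4 called genes with the largest changes among those that have an entry in RefSeq's promoter table: Mcam in the BLA, and Anpep, Myl9 and Pltp in the hippocampus. Each line gives 250 bases ending just before the start, 5′ to 3′ along the gene's own strand, from build GRCm38.p6. The start is RefSeq's, while gene positions given elsewhere come from the GENCODE annotation. By those positions all 4 windows reach into the gene. The Anpep window lies wholly inside it, the gene running from 79821803 to 79861059. Capitals mark GC boxes (GGGCGG or its reverse complement CCGCCC, both strands searched) and, in Myl9, a CArG box, the motif bound by serum response factor in smooth muscle genes.
Mcam chr9:44134408-44134657 (plus strand): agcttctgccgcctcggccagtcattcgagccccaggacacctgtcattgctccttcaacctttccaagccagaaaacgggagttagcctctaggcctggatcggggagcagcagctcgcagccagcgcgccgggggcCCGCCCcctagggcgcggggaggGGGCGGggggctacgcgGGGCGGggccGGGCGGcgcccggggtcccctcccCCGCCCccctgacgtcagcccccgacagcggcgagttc
Anpep chr7:79848211-79848460 (minus strand): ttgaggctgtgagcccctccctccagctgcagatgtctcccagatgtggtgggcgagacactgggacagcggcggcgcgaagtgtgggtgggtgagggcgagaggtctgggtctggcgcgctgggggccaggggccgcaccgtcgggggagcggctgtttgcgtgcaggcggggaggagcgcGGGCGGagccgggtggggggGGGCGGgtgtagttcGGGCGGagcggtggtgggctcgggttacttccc
Myl9 chr2:156775214-156775463 (plus strand): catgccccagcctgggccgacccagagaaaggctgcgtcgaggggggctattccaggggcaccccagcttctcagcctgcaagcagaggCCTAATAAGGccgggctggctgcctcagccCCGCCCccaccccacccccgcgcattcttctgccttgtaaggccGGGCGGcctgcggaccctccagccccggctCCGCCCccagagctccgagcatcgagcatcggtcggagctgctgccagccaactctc
Pltp chr2:164857709-164857958 (minus strand): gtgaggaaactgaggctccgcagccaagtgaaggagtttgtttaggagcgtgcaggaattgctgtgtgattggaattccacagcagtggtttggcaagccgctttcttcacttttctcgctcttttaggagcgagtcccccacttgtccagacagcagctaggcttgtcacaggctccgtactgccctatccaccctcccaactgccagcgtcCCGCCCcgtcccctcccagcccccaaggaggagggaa
The Mcam window held 5 GC boxes, Anpep and Myl9 held 3 each and Pltp held 1. No base belonged to both motifs in these windows. A GC box lay in 13 of 27 upstream windows of 23 genes of the set (48.1%), against 32.7% of 32851 mouse windows of the same length. The CArG box was searched only as CCWWWWWWGG, where W is A or T. In that form it started at position -161 in Myl9, and was in 1 of these 27 windows and in 1.47% of all. Looser forms, such as CCCTATATGG and CCTTGTTTGG in the Acta2 window, were not counted. These matches describe letters only and were not tested as binding sites.

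In the hippocampus, 10 of the 34 vessel genes rose in APP/Tau mice over trained and naive mice together, and 0 fell. Of all genes tested, 11.1% were called in either direction, 7.27% higher and 3.8% lower. No vessel gene separated the genotypes without overlap, as 0.473% of all genes did. The 10 were 7 of 24 endothelial genes (Pltp, Ly6c1, Slco1a4, Esam, Vwf, Pecam1 and Slc2a1) and 3 of 10 mural genes (Myl9, Pdgfrb and Anpep). The 10 changes lay between 0.18 and 0.52 on the log2 scale. Of all 34, 28 lay above 0 (82.4%), as 49.7% of all genes did. The median change was 0.15 over the endothelial genes and 0.33 over the mural genes, beside -0.0013 over all genes tested, and the lowest mural change, that of the potassium channel subunit Abcc9, was 0.13 ± 0.12.

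**Figure D1:**
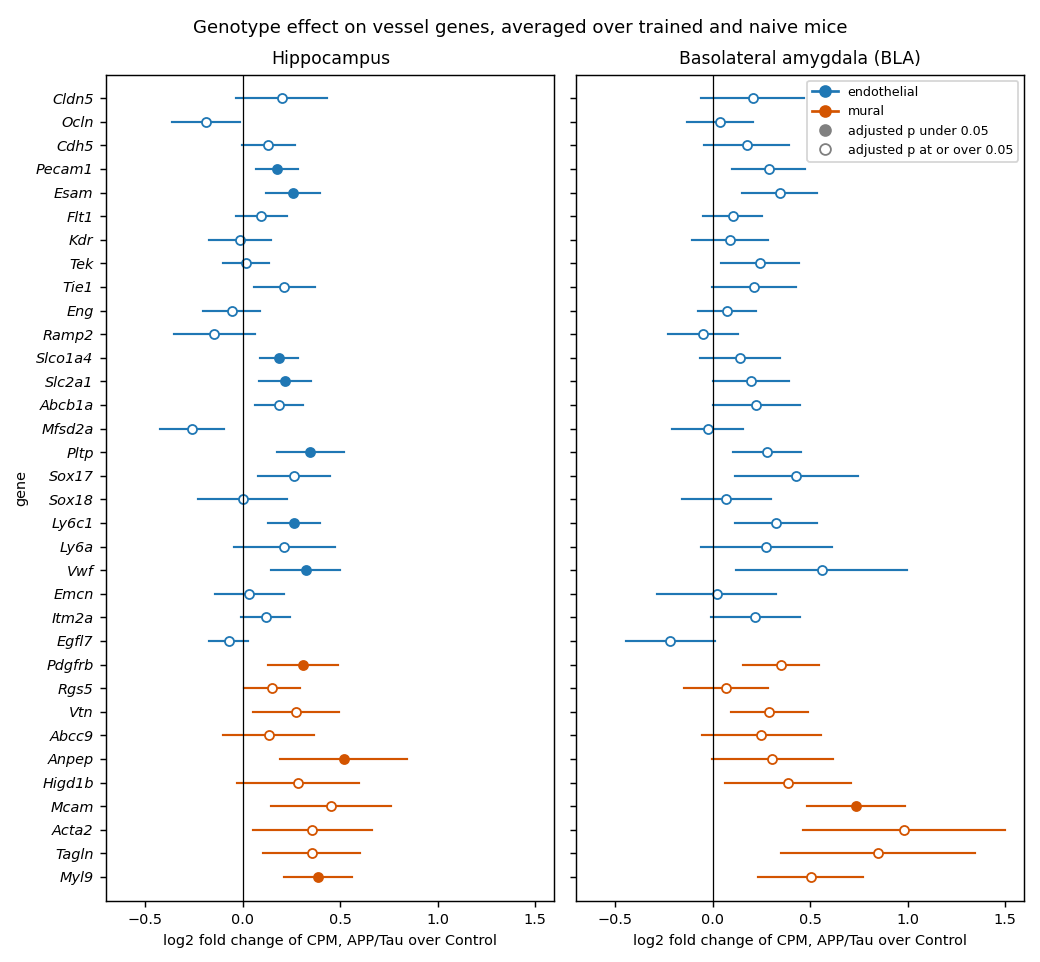
Log2 fold change of CPM, APP/Tau over Control, for each vessel gene in the hippocampus (left) and the BLA (right), averaged over trained and naive mice. Points are estimates, lines are 95% intervals, filled points have an adjusted p under 0.05: 10 genes in the hippocampus and 1 in the BLA.

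Markers of other cell types moved with this result. Of the marker genes of other cells, 9 of 10 microglial, 7 of 10 astrocytic, 5 of 7 oligodendrocytic and 3 of 4 perivascular macrophage markers rose in APP/Tau hippocampus, with 0 of 7 neuronal, 0 of 9 fibroblast and 0 of 5 red blood cell markers called. Of 11 choroid plexus and ependymal markers 1 rose, of 6 striatal and central amygdala markers 1 rose, and 2 of 5 hippocampal and 2 of 4 basolateral neuron markers fell. The microglial markers summed to 420 to 1440 CPM in APP/Tau and 348 to 413 CPM in Control hippocampi. Astrocytic markers summed to 4490 to 10400 CPM in APP/Tau and 4190 to 4720 CPM in Control hippocampi, and oligodendrocytic markers to 5090 to 9920 CPM in APP/Tau and 4060 to 6560 CPM in Control hippocampi. Fibroblast and meningeal markers summed to 155 to 339 CPM in APP/Tau and 146 to 286 CPM in Control hippocampi, and perivascular macrophage markers to 5.89 to 9.56 CPM in APP/Tau and 3.20 to 8.65 CPM in Control hippocampi. Choroid plexus and ependymal markers summed to 281 to 1530 CPM in APP/Tau and 244 to 1070 CPM in Control hippocampi. No marker on these lists was at 0 in any hippocampal library. The part of these cell types in the vessel gene result was not tested.

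Myl9, the regulatory light chain of smooth muscle myosin, gave the smallest p of the set in the hippocampus. Its levels were 8.41, 8.76, 11.2 and 11.3 CPM in trained and 6.37, 7.12, 9.10, 9.76 and 9.91 CPM in naive APP/Tau mice. In Controls it had 5.59 to 7.61 CPM in the 6 trained mice (median 6.81) and 6.44, 7.18, 7.19, 7.30 and 7.94 CPM in naive mice. The groups overlapped, with 7 of 9 APP/Tau libraries above the highest Control library. Myl9 rose by 0.39 ± 0.09 (edgeR adjusted p = 0.0107), and it was called in all 20 fits that left out 1 library. The gene lies at chr2:156775420-156781658 on the plus strand of GRCm38.

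The other smooth muscle contractile genes had changes of like size that did not pass. Acta2, smooth muscle actin, had 4.07 to 11.6 CPM in APP/Tau (median 7.79) and 5.0 to 7.43 CPM in Control hippocampi (median 6.55), a change of 0.36 ± 0.16 (edgeR adjusted p = 0.137). Tagln, the actin-binding protein transgelin, had 3.55 to 8.19 CPM in APP/Tau (median 5.87) and 3.64 to 6.23 CPM in Control (median 5.14), a change of 0.35 ± 0.13 (edgeR adjusted p = 0.0745). For each of the pair 1 APP/Tau library lay below the lowest Control, and 5 of 9 for Acta2 and 4 of 9 for Tagln lay above the highest. Tagln shares 58.35% of its 50-base windows with other annotated genes, mostly Gm48529, so its reads may be split.

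Of 7 pericyte genes 2 rose. Pdgfrb, the PDGF receptor that recruits and keeps pericytes, had 17.2 to 30.2 CPM in APP/Tau hippocampi (median 23.1) and 15.4 to 21.7 CPM in Controls (median 17.7). Its change was 0.31 ± 0.09 (edgeR adjusted p = 0.0364), with 5 of 9 APP/Tau libraries above the highest Control, and the call held in 10 of 20 fits without 1 library. Anpep had 2.73, 3.70, 5.55 and 6.98 CPM in trained and 2.09, 3.11, 3.27, 3.81 and 4.01 CPM in naive APP/Tau mice. In Controls it had 1.51 to 3.12 CPM in trained mice (median 2.74) and 2.47, 2.54, 2.84, 3.52 and 3.62 CPM in naive mice. The highest Anpep levels were in 2 trained APP/Tau libraries, and the groups overlapped. Anpep rose by 0.52 ± 0.17 (edgeR adjusted p = 0.0499), a call at the edge that held in 4 of 20 fits without 1 library.

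The most abundant pericyte genes did not pass. Rgs5 had 87.4 to 118 CPM in APP/Tau (median 99.1) and 73.2 to 115 CPM in Control hippocampi (median 90.1), a change of 0.15 ± 0.07 (edgeR adjusted p = 0.176). Vtn had 49.9 to 97.6 CPM in APP/Tau (median 66.2) and 50.4 to 66.9 CPM in Control (median 60.1), a change of 0.28 ± 0.11 (edgeR adjusted p = 0.115). Mcam (CD146), an adhesion molecule of pericytes, smooth muscle and endothelium, had 14.6 to 37.5 CPM in APP/Tau (median 23.7) and 13.7 to 26.2 CPM in Control (median 17.4). Its change was 0.45 ± 0.16 (edgeR adjusted p = 0.0655). Vtn and Mcam were highest in the same 3 APP/Tau libraries, trained replicates 1 and 3 and naive replicate 5. Of the 2 pericyte genes left, Abcc9 had 5.70 to 11.7 CPM in APP/Tau and 5.29 to 9.75 CPM in Control hippocampi. Higd1b, a mitochondrial membrane protein, had 0.866 to 2.09 CPM in APP/Tau and 0.945 to 1.76 CPM in Control hippocampi, a change of 0.28 ± 0.16.

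**Figure D2:**
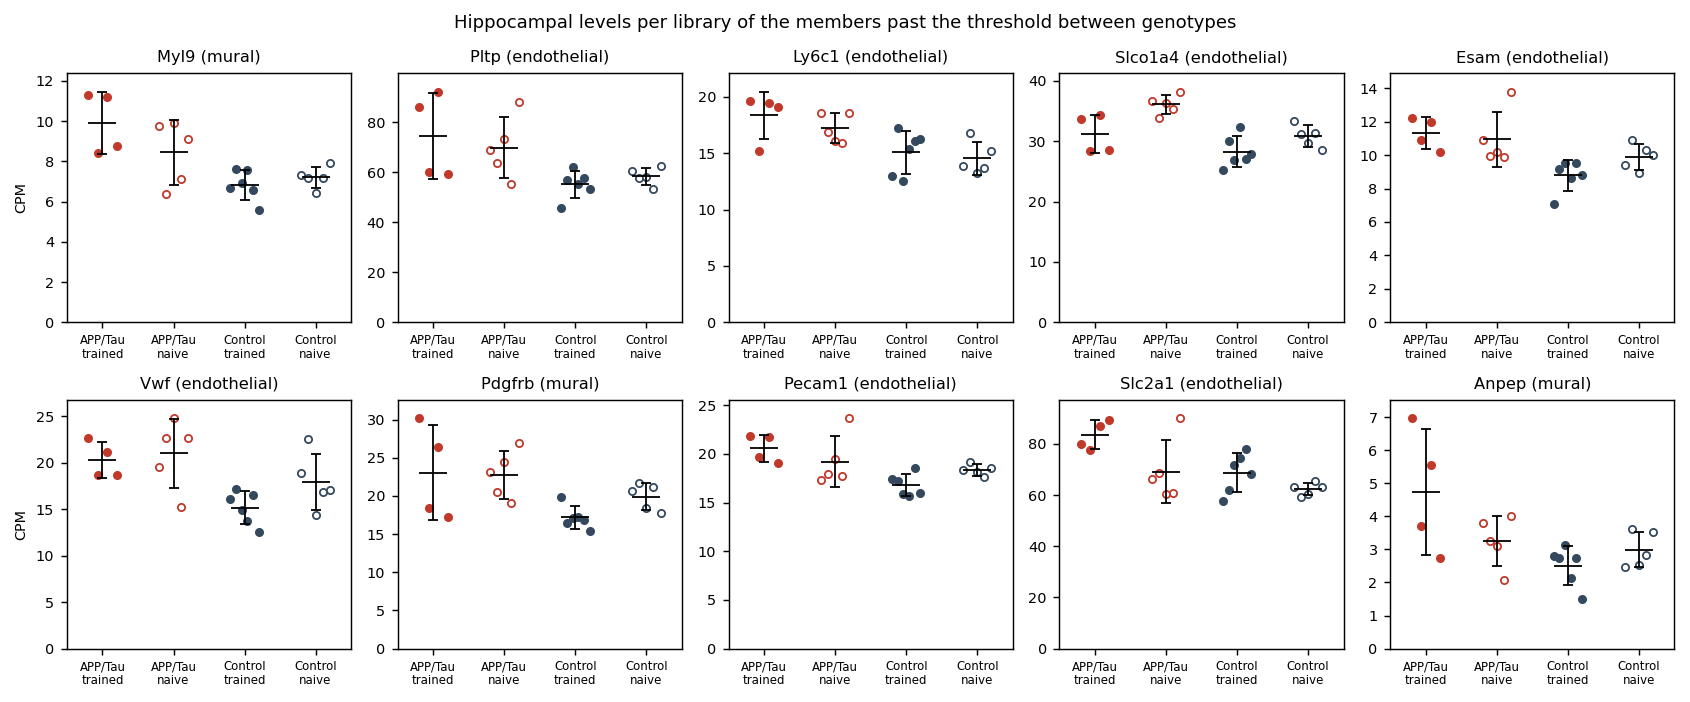
CPM per library of the 10 vessel genes called between genotypes in the hippocampus, ordered by p. Points are libraries, APP/Tau in red and Control in dark blue, filled for trained and open for naive mice; bars are the mean ± SD of each group. The ranges of APP/Tau and Control overlap for every gene.

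Among endothelial transporter and lipid transfer genes 3 of 5 rose. Pltp had 55.1 to 92.2 CPM in APP/Tau (median 68.9) and 45.5 to 62.3 CPM in Control hippocampi (median 57.6), with 6 of 9 APP/Tau libraries above the highest Control. It rose by 0.35 ± 0.09 (edgeR adjusted p = 0.0178). Pltp shares 10.85% of its windows with Ctsa. Slco1a4, an organic anion carrier, had 28.3 to 38.2 CPM in APP/Tau (median 34.3) and 25.2 to 33.3 CPM in Control (median 29.7), with 7 of 9 APP/Tau libraries above the highest Control. It rose by 0.19 ± 0.05 (edgeR adjusted p = 0.0228). Slc2a1 had 60.4 to 90.1 CPM in APP/Tau (median 77.7) and 57.8 to 77.9 CPM in Control (median 63.3), and rose by 0.22 ± 0.07 (edgeR adjusted p = 0.0437), a call kept in 6 of 20 fits without 1 library and lost with no filter on low counts or without the 18S-rich libraries. The drug efflux pump Abcb1a (P-glycoprotein) just missed the threshold at 0.19 ± 0.06 (edgeR adjusted p = 0.0574).

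Mfsd2a, the lysophospholipid carrier that also keeps transcytosis low at the barrier, lay on the other side of 0. It had 8.28, 9.46, 12.3 and 12.9 CPM in trained and 7.28, 8.55, 8.86, 9.64 and 9.91 CPM in naive APP/Tau mice. Control hippocampi had 10.8 to 13.3 CPM in trained mice (median 11.7) and 10.4, 10.7, 10.7, 11.8 and 13.6 CPM in naive mice. All 5 naive and 2 trained APP/Tau libraries were below the lowest Control library. Its change was -0.26 ± 0.08, with an edgeR adjusted p of 0.0514 that missed the threshold, and 4 of 7 alternative fits called it lower.

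Among junction and adhesion genes 2 of 5 rose. Esam, an adhesion molecule of endothelial junctions, had 9.88 to 13.8 CPM in APP/Tau (median 10.9) and 7.05 to 10.9 CPM in Control hippocampi (median 9.39). It rose by 0.26 ± 0.07 (edgeR adjusted p = 0.0269), a call lost without the 18S-rich libraries (edgeR adjusted p = 0.0626). Pecam1 (CD31) had 17.3 to 23.7 CPM in APP/Tau (median 19.5) and 15.7 to 19.2 CPM in Control (median 17.6), and rose by 0.18 ± 0.05 (edgeR adjusted p = 0.0416), a call kept in 7 of 20 fits without 1 library and lost with no filter on low counts or without the 18S-rich libraries. For each of the pair 5 of 9 APP/Tau libraries lay above the highest Control. The tight junction genes did not pass: Cldn5 had 0.20 ± 0.12 and Ocln (occludin) -0.19 ± 0.09 (edgeR adjusted p = 0.284 and 0.174). VE-cadherin (Cdh5) had 0.13 ± 0.07.

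The endothelial surface and secreted genes Vwf and Ly6c1 rose as well, 2 of 6 in that role. Vwf, the von Willebrand factor that binds platelets, had 15.2 to 24.8 CPM in APP/Tau (median 21.1) and 12.5 to 22.5 CPM in Control hippocampi (median 16.5). It rose by 0.32 ± 0.09 (edgeR adjusted p = 0.0277). Ly6c1, a GPI-anchored surface antigen of brain endothelium, had 15.2 to 19.6 CPM in APP/Tau (median 18.6) and 12.5 to 17.2 CPM in Control (median 15.2). Its rise was 0.26 ± 0.07 (edgeR adjusted p = 0.0202), a call lost without the 18S-rich libraries (edgeR adjusted p = 0.0545). Ly6c1 shares 32.77% of its windows with other annotated genes, so its reads may be split. The largest part, 21.49%, is shared with its paralog Ly6c2, which had 0 to 0.686 CPM in APP/Tau and 0.0347 to 0.730 CPM in Control libraries. Itm2a had 0.12 ± 0.06, the stem cell antigen Ly6a (Sca-1) 0.21 ± 0.13, Emcn 0.03 ± 0.09 and the secreted factor Egfl7 -0.07 ± 0.05.

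None of the 6 endothelial receptor genes was called in the hippocampus, where their median change was 0.0014. The VEGF receptors Flt1 and Kdr had 0.10 ± 0.07 and -0.02 ± 0.08. The angiopoietin receptor Tek had 0.02 ± 0.06 and its relative Tie1 0.21 ± 0.08 (edgeR adjusted p = 0.086 for Tie1). Endoglin (Eng), a TGF-β co-receptor, had -0.06 ± 0.08 and Ramp2, a partner of the adrenomedullin receptor, -0.15 ± 0.11. The 95% intervals of Flt1, Kdr, Tek and Eng reached no further than 0.23 from 0. Of the transcription factors of the endothelial Sox group, Sox17 had 0.26 ± 0.09 (edgeR adjusted p = 0.0699) and Sox18 had 0.0008 ± 0.12. Shared windows also leave Ramp2 (30.66%, with Vps25), Abcb1a (22.53%), Ly6a (18.97%) and Sox17 (14.99%) uncertain.

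Summed over the 24 endothelial genes, levels were 522 to 607 CPM in trained and 463 to 621 CPM in naive APP/Tau hippocampi, against 462 to 498 CPM in trained and 473 to 523 CPM in naive Controls. The 10 mural genes summed to 223 to 328 CPM in trained and 203 to 306 CPM in naive APP/Tau hippocampi, against 195 to 228 CPM in trained and 199 to 237 CPM in naive Controls. APP/Tau libraries spread more widely: the SD of the mural sum was 47.2 CPM over 9 APP/Tau mice and 15.3 CPM over 11 Controls. Trained replicates 1 and 3 and naive replicate 5 of the APP/Tau mice had the highest sums of both classes, 598 to 621 CPM endothelial and 306 to 328 CPM mural. These 3 also had the highest microglial (1090 to 1440 CPM) and astrocytic (8550 to 10400 CPM) sums. Their neuronal marker sums, 4420 to 4980 CPM, were the lowest of all hippocampal libraries, where Controls had 5180 to 6850 CPM. The part of these cell types in the vessel sums was not tested. Per 100 endothelial CPM there were 46.9 ± 4.46 mural CPM in 9 APP/Tau mice and 44.0 ± 2.83 in 11 Controls (mean ± SD), a difference within the spread between mice.

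**Figure D3:**
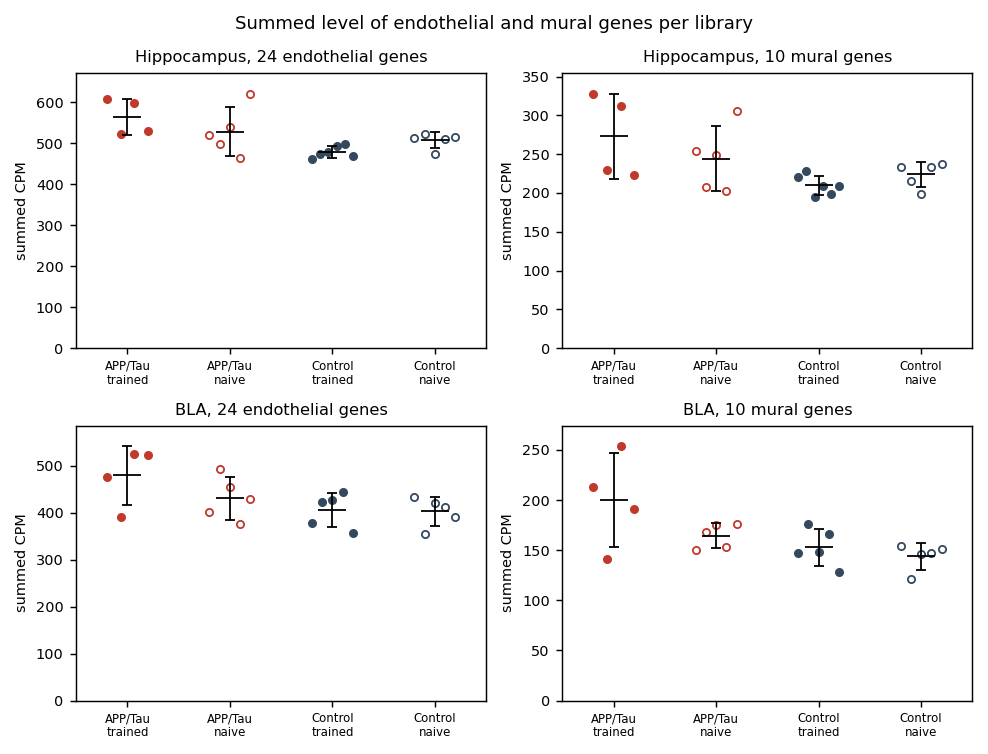
Summed CPM of the 24 endothelial (left) and 10 mural (right) genes per library in the hippocampus (top) and the BLA (bottom). Points are libraries, bars the mean ± SD of each group. In the hippocampus the highest mural sums, 306 to 328 CPM, belong to 3 APP/Tau libraries, while Controls range from 195 to 237 CPM.

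The number of hippocampal calls moved with single libraries, and the share of all genes called moved with it. Without APP/Tau trained replicate 1, or without APP/Tau trained replicate 3, 1 of the 34 genes was called, Myl9, beside 4.46% and 4.52% of all genes. Without APP/Tau trained replicate 2 there were 16 calls, 15 higher and Mfsd2a lower, beside 16.9% of all genes. Without Control naive replicate 3 there were 4 calls, beside 7.75%. There were 6 each without Control trained replicate 2, Control naive replicate 5 or APP/Tau naive replicate 5, beside 8.15%, 8.89% and 6.96%. Leaving out both 18S-rich Control libraries, an alternative chosen after seeing the data, gave 5: Myl9, Pltp, Slco1a4, Vwf and Pdgfrb. Over all genes that fit called 1803, against 2854 in the main fit.

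The genotype effect was also taken within trained and within naive mice. In trained mice 3 of 34 vessel genes rose in APP/Tau hippocampi, where 2.8% of all genes were called in either direction and 2.65% higher. Myl9 rose by 0.54 ± 0.13, Anpep by 0.92 ± 0.24 and Pecam1 by 0.29 ± 0.08 (edgeR adjusted p = 0.0255, 0.0402 and 0.0465). Pecam1 had 19.1, 19.7, 21.7 and 21.8 CPM in trained APP/Tau mice against 15.7 to 18.6 CPM in trained Controls (median 16.6). In naive mice 0 of 34 passed edgeR's threshold, where 0.202% of all genes did (0.109% higher, 0.0931% lower), and 5 had an unadjusted p under 0.05; DESeq2 and limma-voom also called 0. The endothelial and mural medians were 0.26 and 0.47 in trained mice, and -0.0011 and 0.16 in naive mice. Fibroblast and meningeal markers had medians of 0.62 in trained and -0.0025 in naive mice, choroid plexus and ependymal markers 0.87 and 0.22, and microglial markers 1.09 and 0.96. Their part in the vessel gene medians was not tested. In trained mice limma-voom called 0 vessel genes, beside 35 of all genes, where the main fit called 721 of all genes. Without the 18S-rich libraries edgeR also called 0, beside 227 of all genes. DESeq2 called 10, beside 1584 of all genes. Leaving out APP/Tau trained replicate 1 or 3 or Control trained replicate 1 or 6 gave 0 calls, and leaving out Control trained replicate 2 or Control naive replicate 3 or 4 gave 1, where between 0.236% and 2.23% of all genes were called. There were 7 calls without APP/Tau naive replicate 4, 8 without APP/Tau trained replicate 4, 9 without APP/Tau naive replicate 5 and 12 without APP/Tau trained replicate 2, where between 3.33% and 8.46% of all genes were called.

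**Figure D4:**
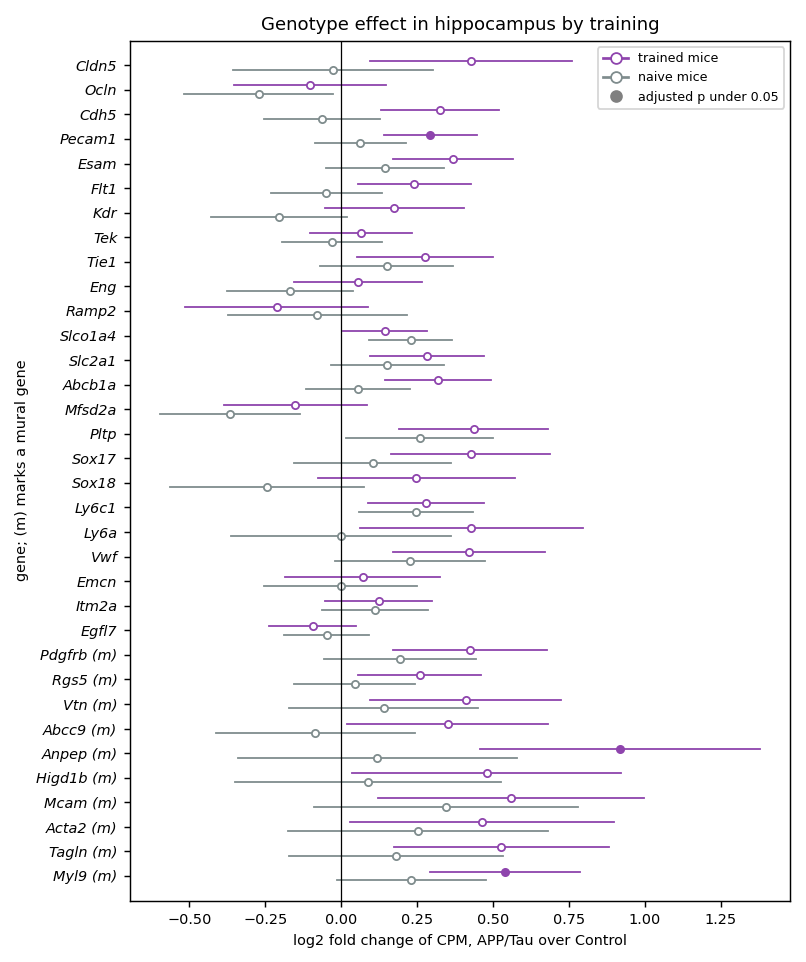
Log2 fold change of CPM, APP/Tau over Control, in the hippocampus of trained (purple) and naive (grey) mice, with 95% intervals. Filled points passed an adjusted p under 0.05, which Myl9, Anpep and Pecam1 did in trained mice. Of the 34 trained minus naive differences 31 lie above 0, and 0 passed the test.

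The test of the difference between the trained and the naive genotype effect called 0 of 34 genes, as of all genes tested (0%). By edgeR 31 of the 34 differences lay above 0, where 48.5% of all genes did, and 7 had an unadjusted p under 0.05; DESeq2 and limma-voom called 0. The largest was that of Anpep, 0.80 ± 0.33 (edgeR adjusted p = 0.984), and its 95% interval ran from 0.14 to 1.45. The median difference was 0.21 over the endothelial and 0.29 over the mural genes. It was 0.66 over the choroid plexus and ependymal markers, 11 of 11 of which lay above 0, and 0.42 over the fibroblast and meningeal markers, with 8 of 9 above 0, and their part was not tested. Training itself changed 0 of 34 genes in APP/Tau hippocampi, where 29 of 34 trained over naive changes lay above 0, and 0 of 34 in Controls, where 28 lay below 0 (0% of all genes called in either by edgeR). The unadjusted p was under 0.05 for 5 genes in APP/Tau mice and 2 in Controls, and DESeq2 and limma-voom called 0 in both.

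In the BLA, 1 of 34 vessel genes rose in APP/Tau mice, the mural gene Mcam, and 0 fell. Of all genes tested there, 1.18% were called in either direction, 0.997% higher and 0.181% lower, and 0.0647% separated the genotypes without overlap, none of them a vessel gene. By sign, 31 of 34 changes lay above 0, as 51.6% of all genes did, with a median of 0.20 over the endothelial and 0.37 over the mural genes beside 0.0068 over all genes. Microglial (5 of 10), astrocytic (2 of 10) and oligodendrocytic (1 of 7) markers rose too, while 0 of 7 neuronal, 0 of 9 fibroblast, 0 of 5 red blood cell, 0 of 8 choroid plexus, 0 of 3 perivascular macrophage and 0 of 6 striatal and central amygdala markers were called, nor any of 5 hippocampal and 4 basolateral ones. Microglial markers summed to 378 to 852 CPM in APP/Tau and 329 to 417 CPM in Control BLA. Astrocytic markers summed to 3700 to 6800 CPM in APP/Tau and 3290 to 4260 CPM in Control BLA. Oligodendrocytic markers, 7 of 7 above 0 with a median of 0.60, summed to 2610 to 5690 CPM in APP/Tau and 2020 to 4190 CPM in Control BLA. Red blood cell markers, 5 of 5 above 0 with a median of 0.56, summed to 20.1 to 130 CPM in APP/Tau and 18.6 to 62.1 CPM in Control BLA. Fibroblast and meningeal markers (8 of 9 above 0, median 0.57) summed to 108 to 224 CPM in APP/Tau and 85.0 to 137 CPM in Control BLA. Striatal and central amygdala markers summed to 309 to 1940 CPM in APP/Tau and 191 to 1620 CPM in Control BLA. Of these 6 of 6 lay above 0, with a median of 0.65. Of the basolateral markers 0 of 4 lay above 0, with a median of -0.53. Of the choroid plexus markers Ttr was at 0 in 4, Folr1 in 12, Otx2 in 15, Tmem212 in 14 and Kcnj13 in 1 of the 19 BLA libraries, and each of the 4 perivascular macrophage markers was at 0 in 1. Their part in the vessel gene values was not tested.

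Mcam had 10.7, 13.3, 17.4 and 18.5 CPM in trained and 11.1, 14.7, 15.9, 16.4 and 19.2 CPM in naive APP/Tau BLA. Control BLA had 6.74, 9.59, 9.83, 10.1 and 12.7 CPM in trained and 6.38, 8.54, 8.87, 9.28 and 9.54 CPM in naive mice. Of the 9 APP/Tau libraries 7 lay above the highest Control, the striatal-rich trained replicate 2, and 9 of 10 Controls lay below the lowest APP/Tau library. Mcam rose by 0.74 ± 0.13, a 1.67-fold change (edgeR adjusted p = 0.0125). The call held in all 19 fits without 1 library and without the striatal-rich libraries (edgeR adjusted p = 0.022 there, chosen after seeing the data). It was lost with a replicate block on the title number (edgeR adjusted p = 0.0532). The gene lies at chr9:44134469-44142727 on the plus strand of GRCm38.

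Acta2 and Tagln had the largest changes of the set in the BLA, but none of the 3 smooth muscle contractile genes passed by edgeR. Acta2 had 2.28, 5.76, 6.49 and 10.6 CPM in trained and 4.76, 5.44, 6.28, 6.83 and 7.08 CPM in naive APP/Tau mice. Controls had 2.19, 2.48, 3.21, 4.90 and 6.87 CPM in trained and 1.07, 1.92, 2.93, 2.97 and 3.58 CPM in naive mice. The trained groups overlapped. The averaged change was 0.98 ± 0.26 (edgeR adjusted p = 0.0683). Tagln had 0.85 ± 0.25 (edgeR adjusted p = 0.0886) and Myl9 0.50 ± 0.14 (edgeR adjusted p = 0.0699). DESeq2 called all 3 genes, and limma-voom called none of them. Tagln was highest in the striatal-rich libraries, at 12.6 CPM in APP/Tau trained replicate 4, 8.20 CPM in APP/Tau naive replicate 2 and 8.38 CPM in Control trained replicate 2. Without those 3 libraries Tagln had 0.70 and was called (edgeR adjusted p = 0.0434).

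**Figure D5:**
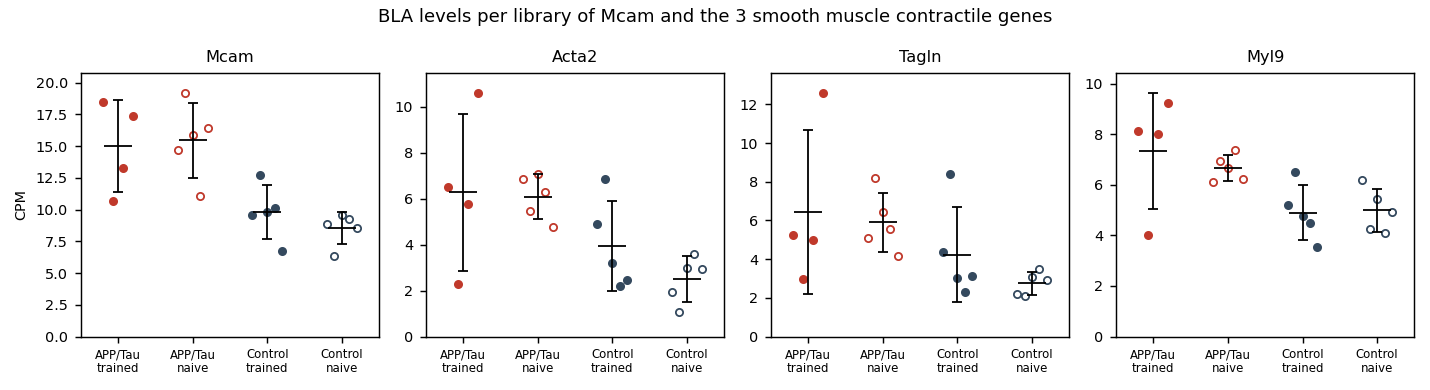
CPM per library in the BLA of Mcam and the smooth muscle genes Acta2, Tagln and Myl9. Points are libraries, bars the mean ± SD of each group. For Mcam, 7 of 9 APP/Tau libraries lie above the highest Control library at 12.7 CPM.

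The 2 most abundant genes of each class did not pass in the BLA. Pltp had 45.2 to 77.1 CPM in APP/Tau (median 63.5) and 42.1 to 58.5 CPM in Control BLA (median 51.5), a change of 0.28 ± 0.09 (edgeR adjusted p = 0.11). Slc2a1 had 51.5 to 92.4 CPM in APP/Tau (median 64.9) and 46.0 to 72.0 CPM in Control (median 60.7), a change of 0.20 ± 0.10. Rgs5 had 47.9 to 111 CPM in APP/Tau (median 56.4) and 48.8 to 74.4 CPM in Control (median 58.8), a change of 0.07 ± 0.11. Vtn had 45.6 to 74.1 CPM in APP/Tau (median 56.6) and 32.3 to 58.4 CPM in Control (median 46.6), a change of 0.29 ± 0.10. Mfsd2a, below 0 in the hippocampus, had -0.02 ± 0.09 in the BLA, where only Egfl7 (-0.22 ± 0.12) and Ramp2 (-0.05 ± 0.09) joined it below 0.

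The endothelial sum was 391 to 526 CPM in trained and 376 to 494 CPM in naive APP/Tau BLA, against 357 to 443 CPM in trained and 355 to 434 CPM in naive Controls. Mural genes summed to 141 to 254 CPM in trained and 150 to 176 CPM in naive APP/Tau BLA, against 128 to 176 CPM in trained and 121 to 154 CPM in naive Controls. The trained APP/Tau replicate 2 held the lowest sums of its group, 391 CPM endothelial and 141 CPM mural. It also had the lowest microglial sum of all APP/Tau BLA libraries, 378 CPM. Without it 11 of 34 genes were called higher in the averaged BLA effect, Acta2, Tagln, Myl9, Pdgfrb, Pltp, Ly6c1 and Pecam1 among them, beside 9.21% of all genes, and 8 in trained mice, beside 2.87%. Without Control trained replicate 2 there were 8 calls in the averaged effect, beside 5.47% of all genes.

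Split by training, the BLA gave 0 of 34 calls in trained mice by edgeR, where 0.0432% of all genes were called (0.0173% higher, 0.0259% lower). In naive mice it also gave 0, where 0.0388% were called (0.0129% higher, 0.0259% lower). The unadjusted p was under 0.05 for 11 genes in trained and 6 in naive mice. DESeq2 called 0 in trained and 2 in naive mice, beside 204 and 110 of all genes. By limma-voom 0 were called in both, beside 8 and 10 of all genes. On the naive groups alone edgeR called 1, beside 27 of all genes. The trained against naive difference of the genotype effect, and training within APP/Tau and within Control mice, gave 0 calls by edgeR, DESeq2 and limma-voom (0% of all genes by edgeR). There 3, 4 and 1 genes had an unadjusted p under 0.05.

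The difference in genotype effect between the tissues was tested in a fit over both. It called 0 of 34 genes, where 0.0262% of all genes passed (0.0187% higher, 0.00748% lower), with 0 at an unadjusted p under 0.05, and DESeq2 and limma-voom called 0. The averaged change was above 0 in both tissues for 28 genes and below 0 in both for 3. The share of all genes with the same sign in both tissues was not counted. Hippocampus and BLA libraries of the same library number correlated (mean 0.289), so the tissues may not be independent of each other. The widest intervals belonged to smooth muscle genes: the hippocampus minus BLA difference was -0.61 for Acta2 (95% interval -1.23 to 0.01) and -0.48 for Tagln (-1.06 to 0.09). For Mcam it was -0.27 (-0.69 to 0.15). Each of these 3 intervals holds 0 and reaches further below it than above.

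Levels were also compared between the tissues. In Control mice 25 of 34 vessel genes were lower and 1 higher in the BLA than in the hippocampus, where 55.4% of all genes were called, 28.6% lower and 26.8% higher. The median BLA over hippocampus log2 ratio was -0.37 over the endothelial and -0.55 over the mural genes, beside -0.03 over all genes. Ocln had the smallest p and the largest ratio, -1.52 ± 0.08, with 3.55 to 4.78 CPM in 10 Control BLA and 9.75 to 15 CPM in 11 Control hippocampi, which did not overlap. Mcam had 6.38 to 12.7 CPM in Control BLA (median 9.41) and 13.7 to 26.2 CPM in Control hippocampi (median 17.4). Pecam1 had 9.49 to 14.5 CPM in Control BLA (median 12.8) and 15.7 to 19.2 CPM in Control hippocampi (median 17.6). The groups stood apart for both, while those of Sox18 and Sox17 met. The share of all genes that stood apart between the tissues was not counted, and these CPM were scaled within each tissue. Sox18 had 2.80 to 5.16 CPM in Control BLA (median 4.35) and 3.96 to 9.31 CPM in Control hippocampi (median 7.11). Sox17 had 1.61 to 3.78 CPM in Control BLA (median 2.84) and 3.56 to 6.39 CPM in Control hippocampi (median 5.0). Ly6c1 had 7.87 to 12.1 CPM in Control BLA (median 9.99) and 12.5 to 17.2 CPM in Control hippocampi (median 15.2), again apart. The ratios were -0.75 ± 0.11 for Sox18, -0.97 ± 0.15 for Mcam, -0.49 ± 0.08 for Pecam1, -0.56 ± 0.09 for Ly6c1 and -0.80 ± 0.13 for Sox17, with edgeR adjusted p between 8.21e-07 and 1.74e-06. Vwf, Anpep and Acta2 also had ratios near -1, at -1.05 ± 0.17, -1.01 ± 0.16 and -0.98 ± 0.22. Egfl7 was the gene called higher in the BLA, with 18.4 to 39.7 CPM there (median 25.3) and 16.9 to 21.6 CPM in Control hippocampi (median 18.9), a ratio of 0.48 ± 0.09. Of the 8 genes not called, Cldn5, Slc2a1, Mfsd2a, Pltp, Itm2a and Higd1b were within 0.17 of 0, and Kdr and Ly6a had -0.19 and -0.34. Hippocampal libraries were made from 50 ng and BLA libraries from 10 ng of RNA, so tissue, RNA input and library preparation cannot be told apart. Markers of several other cell types were lower in the BLA too: 10 of 11 choroid plexus and ependymal markers (median -3.72), 8 of 9 fibroblast and meningeal (-1.57), 4 of 4 perivascular macrophage (-1.58) and 7 of 7 oligodendrocytic ones (-0.99), while the microglial and astrocytic medians were 0.08 and -0.10. Choroid plexus and ependymal markers summed to 16.4 to 52.3 CPM in Control BLA and 244 to 1070 CPM in Control hippocampi, and fibroblast and meningeal markers to 85.0 to 137 CPM in Control BLA and 146 to 286 CPM in Control hippocampi. Their part in the tissue ratios was not tested.

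Vessel genes outside the 34 were read from separate lists. These lists and those of the next paragraphs were chosen with earlier results of these data known, so they are no independent check of the 34. Of all genes, 7.27% were called higher and 3.8% lower in the hippocampus, and 1.18% in either direction in the BLA. In the hippocampus, of 30 further endothelial genes 6 rose and 0 fell, with a median of 0.15. The 3 with the smallest p were the nucleotide and drug pump Abcc4 (0.24 ± 0.06), the transcription factor Fli1 (0.60 ± 0.16) and Slc16a1, a lactate carrier (0.48 ± 0.13), with edgeR adjusted p of 0.0114, 0.0247 and 0.0255. Of 22 further mural genes 3 rose: Art3 by 0.46 ± 0.11, the receptor Notch3 by 0.34 ± 0.09 and desmin (Des) by 0.55 ± 0.16, with edgeR adjusted p of 0.0149, 0.0169 and 0.0309. In the BLA 0 of 30 further endothelial genes were called by edgeR. Of 21 further mural genes tested there Des rose by 0.83 ± 0.18, and Mylk, the kinase that phosphorylates the Myl9 light chain, fell by 0.66 ± 0.16 (edgeR adjusted p = 0.0308 and 0.048). Mylk had -0.03 ± 0.07 in the hippocampus.

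Signalling genes of the vessel wall followed, beside 7.27% of all genes called higher in the hippocampus and 1.18% called in either direction in the BLA. Of 11 VEGF and angiopoietin genes 3 rose in the hippocampus, Angpt1, a Tek ligand, by 0.61 ± 0.13, Angpt2, its context-dependent antagonist, by 0.57 ± 0.15 and Angptl4 by 0.57 ± 0.17. Vegfa itself had -0.15 ± 0.09. Of 17 PDGF, TGF-β and Notch genes 4 rose, led by the receptor Tgfbr2 (0.94 ± 0.16), its ligand Tgfb1 (0.96 ± 0.18) and the target Id3 (0.60 ± 0.16). Glial markers rose in the same libraries, and their part in these changes was not tested. In the BLA 0 of 11 and 0 of 17 were called, and Angpt2 had 0.98 ± 0.24 (edgeR adjusted p = 0.053).

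Genes of endothelial activation and of the interferon response are shared by vessels and immune cells. Over all genes, 7.27% were called higher in the hippocampus and 1.18% in either direction in the BLA. Of 8 activation genes tested in the hippocampus 3 rose: the leukocyte adhesion molecule Icam1 by 1.54 ± 0.27, Lcn2, a secreted iron-siderophore binder, by 3.59 ± 0.77 and the sialomucin Cd34 by 0.29 ± 0.09. Of 17 interferon response genes 15 rose, with a median of 1.11, led by Ifit3, the chemokine Cxcl10 and Ifit1. In the BLA 0 of 7 activation and 0 of 17 interferon genes were called by edgeR.

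Close relatives of the vessel genes were checked because reads can be split between copies. The pump Abcb1b, which shares 16.29% of the windows of Abcb1a, had 2.96 to 5.88 CPM in APP/Tau and 2.54 to 4.13 CPM in Control hippocampi, a change of 0.28 ± 0.14. Slco1a5 and Slco1a6, relatives of Slco1a4, stayed at or under 0.508 and 0.108 CPM in every hippocampal library. Slco1c1, a thyroid hormone carrier of brain endothelium and astrocytes, had 31.8 to 47.4 CPM in APP/Tau and 39.6 to 52.2 CPM in Control hippocampi, and Ly6e had 87.1 to 137 CPM in APP/Tau and 109 to 143 CPM in Control hippocampi. None of the 5 relatives tested in the hippocampus was called by edgeR, and Slco1c1 came nearest at -0.17 ± 0.06 (adjusted p = 0.061). In the BLA 0 of 4 relatives tested were called. Over all genes, 11.1% were called in the hippocampus and 1.18% in the BLA.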

How the data were processed

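RNA of the lysate before ribosome pulldown was sequenced from the hippocampus (20 libraries) and the BLA (19 libraries) after poly(A) selection, per the labels' protocols. The authors deposited 1 table of whole-number read counts per gene for each tissue, not normalized, and these deposited counts were used as they stand. Trimmomatic 0.39 and build mm39 are named in the submitters' processing notes. No aligner, counter or strand setting is named in the labels or tables, so antisense reads may be included. Between 54.3% and 62.7% of hippocampal counts from 1 to 20, and between 58.5% and 69% of those in the BLA, were even.

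The members and all gene lists were chosen with earlier results of these data known. Genes were kept by edgeR's filterByExpr (minimum count 10, total 15), which left 25791 in the hippocampus, 23168 in the BLA and 26725 in both together. edgeR 4.0.16 in R 4.3.3 fitted group means with TMM factors, its quasi-likelihood F test was run per contrast, and p-values were adjusted over all genes tested by the method of Benjamini and Hochberg at 0.05. The standard error is the log2 fold change over the root of F, and 95% intervals are 1.96 errors wide on each side. The code was run on simulated counts in which all genes had the same dispersion, and recovery was required only for large planted changes. That run does not show how reliable the smaller changes given here are. DESeq2 1.42.0, limma-voom 3.58.1, RLE size factors, other filters, other sets of libraries and replicate blocks were alternatives. The titles number the samples within a group, and p-values measure the spread between these samples. Samples of the tissues were treated as independent in the fit over both. No pair of libraries was near-identical, with a chi-square per gene of at least 19.9 among 190 hippocampal pairs and at least 10 among 171 BLA pairs. Per-kilobase levels, shared 50-base windows, gene positions and promoters come from GRCm38 references (RefSeq GRCm38.p6 for promoters), matched by symbol, while the counts were made on mm39, so no count was read by position.

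Named with full values were the genes past the threshold in the averaged genotype effect (up to 14 a tissue) or in any other comparison (up to 6), and the 2 of each class with the highest CPM. From each other list up to 3 genes past the threshold with the smallest p were named, and all relatives. Other genes with per-library values (Acta2, Tagln, Myl9 and Mcam outside the tissue of their call, and Mfsd2a) were chosen after their values were seen.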

Additional observations from a re-analysis of the deposited data

Results flagged for a closer look

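A library was picked out where its gap to the nearest of its group was large for the group's whole range (Dixon's 95% critical value). This held for 13 of 272 groups of 4 to 6 libraries (4.78%), and chance gives about 1 in 20. In the hippocampus of APP/Tau mice, naive replicate 5 was high in Esam (13.8 CPM, others 9.88 to 10.9) and in Slc2a1 (90.1 CPM, others 60.4 to 68.6). Trained replicate 2 was low in Ly6c1 (15.2 CPM, others 19.1 to 19.6). In Control hippocampi, trained replicate 1, which is 18S-rich, was high in Cldn5 (36.9 CPM, others 25.1 to 29.1) and low in Esam (7.05 CPM, others 8.63 to 9.55). Trained replicate 5 was high in Cdh5 (11.6 CPM, others 8.39 to 9.56).

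In the BLA of APP/Tau mice, the striatal-rich naive replicate 2 was high in Slc2a1 (83.5 CPM, others 51.5 to 59.6) and Abcb1a (21.1 CPM, others 13.8 to 15.9). Naive replicate 4 was low in Eng (12.1 CPM, others 15 to 15.9). Trained replicate 1 was high in Higd1b (2.61 CPM, others 1.74 to 1.76), and trained replicate 2 was low in Esam (8.53 CPM, others 11.1 to 11.5). In Control BLA, naive replicate 1 was high in Ramp2 (15.7 CPM, others 10 to 11.6) and trained replicate 4 in Rgs5 (74.4 CPM, others 56.6 to 60.3).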

How the results depend on the processing

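Counts are of the 34 vessel genes, by edgeR unless named. The averaged hippocampal effect called 10, and 5 without the 18S-rich libraries (1 to 16 without 1 library). In trained mice it called 3, against 10 by DESeq2, 0 by limma-voom, 5 with a mean of at least 1 CPM, 8 with a replicate block on the title number and 0 without the 18S-rich libraries (0 to 12 without 1 library). The averaged BLA effect called 1, against 6 by DESeq2, 0 with the replicate block, which gave Mcam an adjusted p of 0.0532, and 2 without the striatal-rich libraries (1 to 11 without 1 library). In naive BLA it called 0, against 2 by DESeq2 and 1 with only the groups compared, and in trained BLA 0 (0 to 8 without 1 library). The other counts stayed within 1.5 times. The cause of these moves was not tested. Both sets of left-out libraries were chosen after seeing the data.

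Over all genes, the averaged hippocampal effect called 2854, and 1803 without the 18S-rich libraries (1171 to 4465 without 1 library). In naive hippocampi it called 52, against 744 by DESeq2, 24 by limma-voom, 83 with a mean of at least 1 CPM and 21 each with only the groups compared and without the 18S-rich libraries (18 to 260 without 1 library). In trained hippocampi it called 721, against 1584 by DESeq2, 35 by limma-voom, 1456 with the block and 227 without the 18S-rich libraries (62 to 2234 without 1 library). The averaged BLA effect called 273, against 1191 by DESeq2, 64 by limma-voom and 44 with the block (45 to 2176 without 1 library). Naive BLA gave 9, against 110 by DESeq2 and 27 with only the groups compared (8 to 16 without 1 library), and trained BLA 10, against 204 by DESeq2 and 6 with only the groups compared (8 to 677 without 1 library). The tissue difference gave 7, against 38 by DESeq2, 4 by limma-voom and 30 with a block on the library number (2 to 25 without 1 library).

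Estimates near 0 changed sign. In the hippocampus Kdr had 0.0024 by limma-voom and 0.0455 without the 18S-rich libraries, and Sox18 had -0.0014 with no filter. Without 1 library Kdr ran from -0.045 to 0.0404, Tek from -0.0188 to 0.0541, Sox18 from -0.081 to 0.0499 and Emcn from -0.0075 to 0.0806. In the BLA without the striatal-rich libraries Ocln had -0.0058, Sox18 -0.0267 and Emcn -0.1167. Without 1 library Ramp2 ran from -0.0803 to 0.0138, Mfsd2a from -0.0729 to 0.0162, Emcn from -0.0644 to 0.0984 and Rgs5 from -0.0667 to 0.1318.

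Title numbers share only a number between groups: same-numbered libraries had a mean correlation of deviations of 0.0844 in the hippocampus (12 of 27 pairs over 0.1) and -0.0461 in the BLA (8 of 27). With the title block the averaged hippocampal effect called 12. By library number, 16 of 19 hippocampus and BLA pairs were over 0.1 (mean 0.289) and 13 of 19 correlated best with their own number, a hint from the data. With that replicate block the tissue difference called 0 and the tissue ratio in Controls 28, against 26. Summed levels without TMM factors were 558.1 CPM endothelial and 263.8 CPM mural in APP/Tau and 482.6 and 212.1 CPM in Control hippocampi.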
